A study of Homo sapiens with 6 samples.

Results

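The mitochondrial ribosomal proteins are the nuclear-encoded protein parts of the ribosome inside mitochondria. Members were the genes of the count table whose symbol is MRPL or MRPS followed by a number, with no pseudogenes. This gave 78 genes of 64299 in the table, 49 of them MRPL (named for the large subunit) and 29 MRPS (named for the small subunit). All 78 had enough reads to be among the 16243 genes tested, with 41 to 4686 reads per gene and library, and 71 of them had at least 100 reads in every library. They lay on 21 chromosomes.

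The mitochondrial ribosome translates the few messenger RNAs made from mitochondrial DNA, all of which encode subunits of the respiratory chain and the ATP synthase. Its proteins are made in the cytosol, imported and assembled on ribosomal RNA made inside the organelle. Part of them have bacterial relatives, and the others are found in mitochondria only.

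RNA was sequenced from HEK293T cells, a human embryonic kidney line that takes up plasmids readily, in 6 libraries. In 3 libraries the cells had been transfected with a plasmid labelled ERbeta, and in 3 with an empty vector, EV_Ctrl. Both groups therefore share the transfection and its lipid reagent. From background knowledge of the study, ERbeta is taken as a designed beta-sheet protein sent to the endoplasmic reticulum (ER), not the estrogen receptor; the labels do not define it, they name no promoter for the plasmids, and the share of cells transfected is not given in the sources used here.

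Totals lay between 13149304 and 16531368 counts for ERbeta, and between 6833442 and 27101644 for EV_Ctrl. The 7 genes fixed as markers of HEK293 were detected in all 6 libraries, with VIM at 839 to 984 CPM and PAX2 at 3.85 to 11.4 CPM. CPM here are counts scaled to the library total times a factor per library (TMM, described below). Of 6 marker genes of blood, liver, fibroblasts and red cells, CD3E, COL1A2 and HBB had 0 reads in all libraries, PTPRC had 1 read and ALB 16 reads in all, and COL1A1 had 13.5 to 31.0 CPM. Their part in the results was not tested. Fold changes over all genes went with the GC content of the transcript, and libraries of both groups differed in this. Members with low GC content had their lowest mean levels in EV_Ctrl 3 and EV_Ctrl 1, and those with high GC content in ERbeta 3. Values under a correction for GC content are given for most of the members named. In such bulk RNA, fewer cells with a transcript and less of it per cell cannot be told apart.

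Promoters of nuclear genes for mitochondria can carry short motifs of factors known to control them. Among these factors are GABP (also named NRF-2, an ETS family protein), NRF1 and YY1. The windows shown are those of genes whose values are given further on, so that the control elements can be read beside the counts. Sequences are from RefSeq on GRCh38.p14, 5′ to 3′ on the strand of the gene, and capitals mark the motif. Starts are those of RefSeq, which lay inside the GENCODE gene bounds given further on for 60 of 69 members matched, by 86 bases in MRPS9 and 16 in MRPL47, and outside them for 3, by 17 bases in MRPS31. The first 4 windows are the 60 bases before the RefSeq start, and hold an ETS-type motif (MRPL47, MRPS31 and MRPS18A) or an NRF1-type motif (MRPS9).
MRPL47 (chr3:179604639-179604698, minus strand): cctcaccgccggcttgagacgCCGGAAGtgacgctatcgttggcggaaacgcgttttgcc
MRPS31 (chr13:40771191-40771250, minus strand): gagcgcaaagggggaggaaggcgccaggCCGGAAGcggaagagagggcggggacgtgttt
MRPS18A (chr6:43687792-43687851, minus strand): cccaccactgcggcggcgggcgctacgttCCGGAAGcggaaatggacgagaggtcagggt
MRPS9 (chr2:105038009-105038068, plus strand): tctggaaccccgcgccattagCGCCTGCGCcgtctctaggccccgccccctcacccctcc
The next 4 are 30 bases around a YY1-type motif just after the RefSeq start.
MRPL42 (chr12:93467512-93467541, plus strand): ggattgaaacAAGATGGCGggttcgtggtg
MRPL50 (chr9:101398576-101398605, minus strand): gatctcatcgAAGATGGCGgcgcgatctgt
MRPS18B (chr6:30617853-30617882, plus strand): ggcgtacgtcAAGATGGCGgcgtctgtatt
MRPS30 (chr5:44808950-44808979, plus strand): atcgcgggcaAAGATGGCGgcggccaggtg

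Promoter windows of 300 bases (250 before the start and 50 after it) were matched for 69 of the 78 members, 42 MRPL and 27 MRPS. They were searched on both strands for CCGGAAG (ETS-type), GCGCANGCG (NRF1-type) and AAGATGGCG (YY1-type), and matches of different motifs overlapped in 0 members. The ETS-type motif was in 29 members (42.0%), against 18.5% of the 11721 promoters of genes tested. The YY1-type motif was in 13 members (18.8%), against 3.77% of promoters of genes tested. The NRF1-type motif was also in 13 members (18.8%), against 14.4%. At least 1 of the 3 was in 45 members (65.2%), against 32.2% of promoters of genes tested and 31 of the 62 matched promoters of cytosolic ribosomal proteins.

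The motifs differed in where they lay. Of 39 ETS-type matches, 27 lay within 100 bases before the start. Of 14 YY1-type matches, 10 lay after the start, and 12 were on the strand of the gene. Of 15 NRF1-type matches, 0 lay after the start, and their median position was 115 bases before it. A match is a stretch of letters and shows no binding. MRPL46 and MRPS11, which encode a large and a small subunit protein, have GENCODE starts 34 bases apart on opposite strands of chromosome 15.

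Fold changes of members with and without each motif are given without a test. The median log2 fold change, ERbeta over EV_Ctrl, was 0.04 for the 29 members with the ETS-type motif and 0.03 for the 40 without. It was 0.06 for the 13 members with the YY1-type motif and 0.02 for the 56 without. It was 0.04 for the 13 members with the NRF1-type motif and 0.02 for the 56 without. For the ETS-type motif the quartiles were -0.07 and 0.17 with it and -0.10 and 0.10 without it.

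No gene in the table passed the test between ERbeta and EV_Ctrl cells, the mitochondrial ribosomal proteins among them. The summed CPM of the MRPL genes and of the MRPS genes differed by less than the SD of the EV_Ctrl libraries. These sums go by symbol and are not levels of the subunits. With edgeR's quasi-likelihood test and Benjamini-Hochberg adjustment over 16243 genes, 0 of 78 members had an adjusted p under 0.05, against 0.0% of all genes, and the smallest adjusted p of a member was 0.397. At an unadjusted p under 0.05, 3 members were higher in ERbeta (MRPL42, MRPL47 and MRPS35), against 9.54% of all genes, and 0 were lower, against 2.88%. DESeq2 called 0 members, against 0.438% of all genes (71 of 16219), and limma-voom called 0. The authors' deposited table gives an adjusted p for 74 members, and it is under 0.05 for 1 of them, MRPL42 (0.0333), against 421 of 11150 genes with a value there.

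Of the 78 members, 49 had a positive log2 fold change (62.8%), against 48.3% of all genes tested, with 32 of 49 among MRPL and 17 of 29 among MRPS. The median was 0.03 for MRPL and 0.03 for MRPS, against -0.01 for all genes tested, and both family medians turned to -0.06 when counts were scaled by library size only, which moved the median of all genes by -0.09. The members' quartiles were -0.09 and 0.15, against -0.16 and 0.22 for all genes tested. Their fold changes had an SD of 0.21, against 0.36 over all genes, and ran from -0.38 (MRPL38) to 0.70 (MRPL47). The 3 highest were all MRPL genes, and 49 members lay within 1 SE of no difference.

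**Figure D1:**
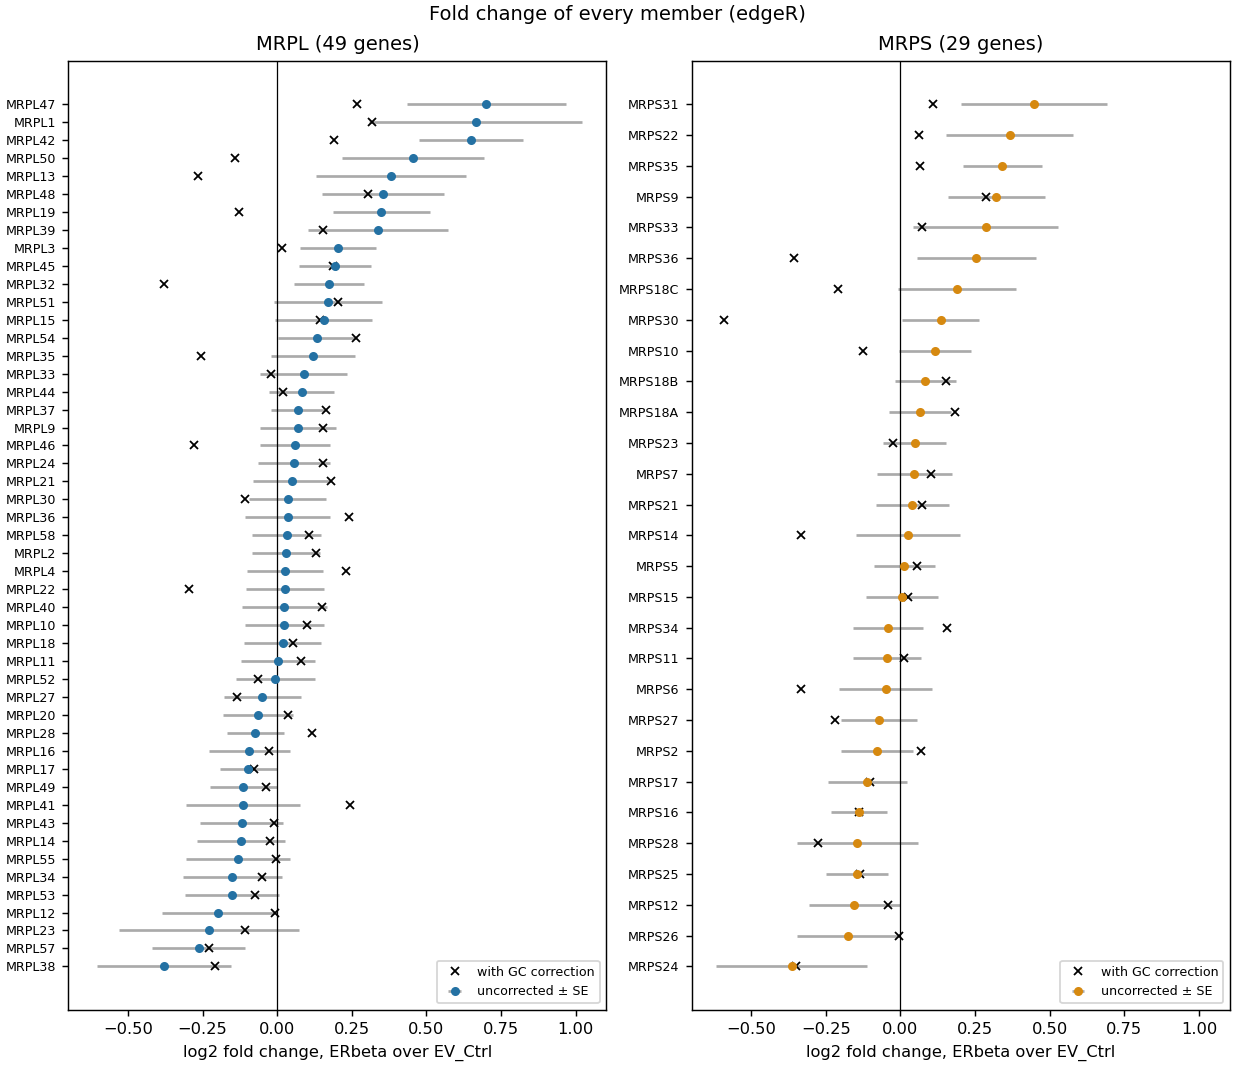
Log2 fold change, ERbeta over EV_Ctrl, of the 49 MRPL genes (left) and 29 MRPS genes (right), sorted by value; coloured points and bars are the edgeR estimate ± SE from 3 libraries per group, and crosses are the estimate with a correction for GC content. The points run from -0.38 for MRPL38 to 0.70 for MRPL47, and the crosses of several members at the top lie nearer to 0 or below it.

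The 49 MRPL genes together had 2775, 3076 and 2831 CPM in the ERbeta libraries, against 2840, 2983 and 2415 CPM in the EV_Ctrl libraries. The 29 MRPS genes together had 1814, 1968 and 1801 CPM in the ERbeta libraries, against 1903, 1918 and 1670 CPM in the EV_Ctrl libraries. With this TMM scaling EV_Ctrl 3 was the lowest library for both sums, and the groups overlapped in both. As shares of the library total, MRPL genes took 0.2718, 0.2985 and 0.2683% in the ERbeta libraries, against 0.300, 0.292 and 0.2566% in the EV_Ctrl libraries. MRPS genes took 0.1777, 0.191 and 0.1707% in ERbeta, against 0.201, 0.1877 and 0.1774% in EV_Ctrl. The groups overlapped in these shares too, and ERbeta 3 was then the lowest library for MRPS.

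The mean sums were 2894 ± 160 CPM in ERbeta against 2746 ± 295 CPM in EV_Ctrl for MRPL (SD, n = 3 each). For MRPS they were 1861 ± 92.9 CPM in ERbeta against 1830 ± 139 CPM in EV_Ctrl (SD, n = 3 each). Both differences were smaller than the SD of the EV_Ctrl libraries. Their direction depended on the scaling, since the mean shares of the library total were lower in ERbeta for both MRPL and MRPS. The ratio of the MRPL sum to the MRPS sum was 1.53, 1.56 and 1.57 in the ERbeta libraries, against 1.49, 1.56 and 1.45 in the EV_Ctrl libraries. Here too EV_Ctrl 2 lay inside the ERbeta range, and the means were 1.555 ± 0.023 in ERbeta against 1.498 ± 0.054 in EV_Ctrl (SD, n = 3 each).

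**Figure D2:**
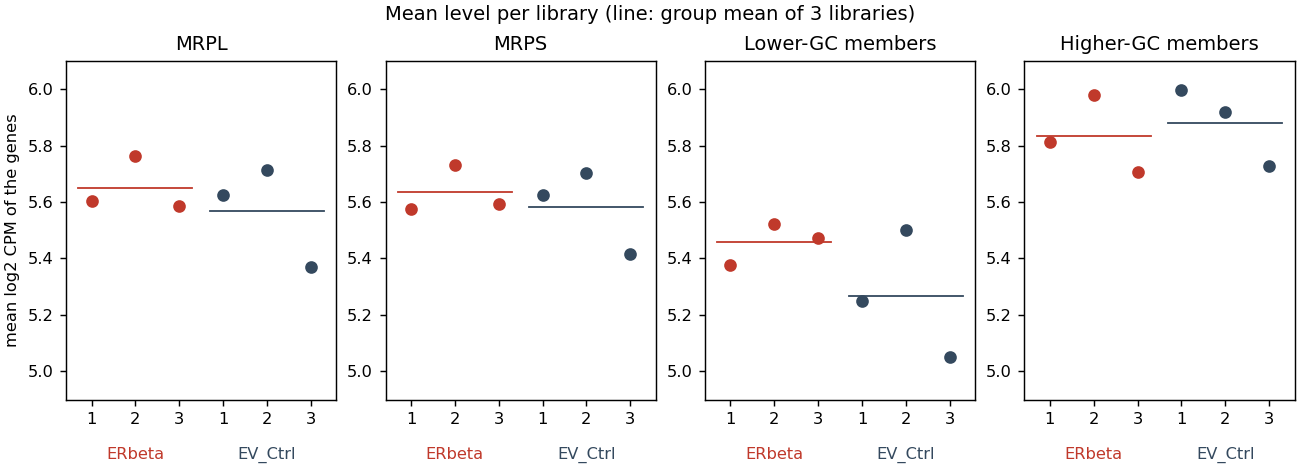
Mean log2 CPM per library (points) of the MRPL genes, the MRPS genes, and the members below and at or above the members' median GC content, with the 3 ERbeta libraries left and the 3 EV_Ctrl libraries right; lines are group means of 3 libraries. For the lower-GC members the ERbeta libraries lie at 5.38 to 5.52, above EV_Ctrl 1 (5.25) and EV_Ctrl 3 (5.05) and around EV_Ctrl 2 (5.50).

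The EV_Ctrl libraries did not behave alike. EV_Ctrl 2 lay within the range of the 3 ERbeta libraries for 53 of 78 members, EV_Ctrl 1 for 31 and EV_Ctrl 3 for 26. EV_Ctrl 3 was below that range for 48 members and was the lowest of all 6 libraries for 45. Among the ERbeta libraries, ERbeta 2 was the highest of all 6 for 33 members, and ERbeta 3 was the lowest of all 6 for 21. The groups were apart for few members. The 3 ERbeta values were all above the 3 EV_Ctrl values for 4 members (MRPL32, MRPL42, MRPL47 and MRPS35), or 5.13% against 10.2% of all genes tested, and all below them for 2 (MRPL17 and MRPS16), or 2.56% against 8.48%.

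Among the large subunit proteins, MRPL42 had the smallest p. MRPL42 (mL42, a protein found in mitochondrial ribosomes and not in bacterial ones; chr12:93467488-93516213, plus strand, GRCh38) had 95.8, 95.2 and 113 CPM in the ERbeta libraries, against 53.3, 81.3 and 58.5 CPM in the EV_Ctrl libraries. The groups did not overlap, and EV_Ctrl 2 was the control nearest to the ERbeta libraries. The log2 fold change was 0.65 ± 0.17 (SE; unadjusted p = 0.00614, adjusted p = 0.397 with edgeR). With the GC correction it was 0.19 ± 0.08, and 0.05 ± 0.10 with a correction for GC content and transcript length together. Its GC content is that of a longest transcript of 15582 bases. Its fold change was the one that the authors' deposited table called, and the YY1-type motif just after its start is printed above.

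MRPL47 (uL29m, relative of a bacterial protein at the exit of the peptide tunnel; chr3:179588285-179604654, minus strand) had 37.2, 38.2 and 39.7 CPM in the ERbeta libraries, against 18.01, 34.8 and 17.0 CPM in the EV_Ctrl libraries. The ERbeta libraries were close to each other, and EV_Ctrl 2 stood near them, apart from the other 2 controls. The log2 fold change was 0.70 ± 0.27 (SE; unadjusted p = 0.0314 with edgeR), the highest of the family, and 0.27 ± 0.14 with the GC correction. Of the exonic bases of MRPL47, 9.1% overlap ACTL6A on the opposite strand.

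MRPL1 (uL1m, the protein of the stalk at the ribosome's exit site for transfer RNA; chr4:77862520-77952790, plus strand) had 20.2, 23.2 and 20.9 CPM in the ERbeta libraries, against 10.5, 21.7 and 7.14 CPM in the EV_Ctrl libraries. Here EV_Ctrl 2 lay within the ERbeta range, so the groups overlapped. The log2 fold change was 0.67 ± 0.36 (SE), and 0.32 ± 0.24 with the GC correction. MRPL50, another protein specific to mitochondrial ribosomes, had 43.9, 48.7 and 44.9 CPM in the ERbeta libraries, against 30.1, 46.4 and 23.1 CPM in the EV_Ctrl libraries. Its log2 fold change of 0.46 ± 0.24 (SE) turned to -0.14 ± 0.15 with the GC correction. MRPL19 (bL19m, at the interface of the subunits in bacteria) did likewise, with 0.35 ± 0.16 (SE) and -0.13 ± 0.09 with the GC correction.

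**Figure D3:**
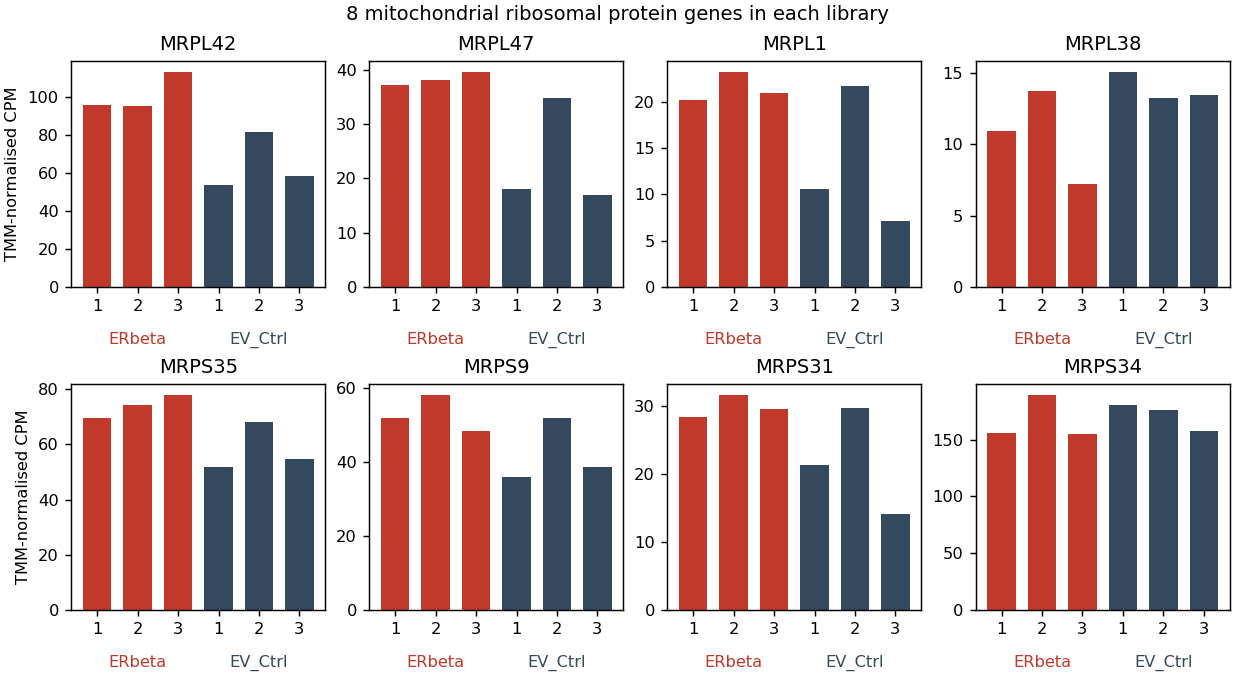
TMM-normalised CPM of 8 mitochondrial ribosomal protein genes in each library (bars), with ERbeta 1 to 3 in red on the left and EV_Ctrl 1 to 3 in grey on the right of each panel. In MRPL42, MRPL47, MRPL1, MRPS35, MRPS9 and MRPS31 the bar of EV_Ctrl 2 stands above those of EV_Ctrl 1 and 3, as for MRPL47 with 34.8 against 18.01 and 17.0 CPM.

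At the other end, MRPL38 had the lowest fold change of the family. MRPL38 (mL38, a protein specific to mitochondrial ribosomes) had 10.9, 13.7 and 7.22 CPM in the ERbeta libraries, against 15.1, 13.2 and 13.5 CPM in the EV_Ctrl libraries. ERbeta 3 was the low library, and the groups overlapped. The log2 fold change was -0.38 ± 0.22 (SE), or -0.21 ± 0.14 with the GC correction, and 37.5% of its exonic bases are shared with another gene on the same strand. MRPL57 had a log2 fold change of -0.26 ± 0.16 (SE). MRPL23 (uL23m, at the exit of the peptide tunnel) had -0.23 ± 0.30 (SE), or -0.11 ± 0.25 with the GC correction, and spread widely, with 12.1, 11.9 and 6.90 CPM in the ERbeta libraries, against 15.9, 13.0 and 7.75 CPM in the EV_Ctrl libraries.

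Some members of the large subunit have known side roles, and the groups overlapped in those named here. MRPL12 (bL12m), the stalk protein that recruits translation factors and also binds the mitochondrial RNA polymerase POLRMT, had 35.0, 55.0 and 37.9 CPM in the ERbeta libraries, against 54.0, 49.5 and 43.3 CPM in the EV_Ctrl libraries. ERbeta 2 was above all controls and the other 2 ERbeta libraries below them, and the log2 fold change was -0.20 ± 0.19 (SE), or -0.0088 ± 0.15 with the GC correction. Of its exonic bases, 68.2% are shared with a readthrough gene, so part of its reads could be assigned there. MRPL58 (also ICT1), a peptidyl-tRNA hydrolase that rescues stalled ribosomes, had 38.4, 43.2 and 42.6 CPM in the ERbeta libraries, against 43.4, 41.1 and 37.2 CPM in the EV_Ctrl libraries. Its log2 fold change was 0.03 ± 0.11 (SE), and -0.06 when counts were scaled by library size only. MRPL18, which binds 5S ribosomal RNA, had a log2 fold change of 0.02 ± 0.13 (SE), and -0.07 by library size only.

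MRPL17 and MRPL32 were apart between groups at small differences. MRPL17 had 57.6, 59.99 and 56.9 CPM in the ERbeta libraries, against 63.6, 62.3 and 60.8 CPM in the EV_Ctrl libraries, a log2 fold change of -0.10 ± 0.10 (SE). MRPL32, which is matured by the protease AFG3L2 at the inner membrane, had 56.5, 56.8 and 63.1 CPM in the ERbeta libraries, against 55.3, 54.8 and 46.2 CPM in the EV_Ctrl libraries, a log2 fold change of 0.17 ± 0.12 (SE). Neither passed an unadjusted p under 0.05, and MRPL32 turned to -0.38 ± 0.16 with the GC correction. Both were chosen after their values were seen.

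Other members lie, like MRPL47 and MRPL23, around the exit of the peptide tunnel, where the new chain leaves towards the inner membrane; they are named after their values were seen. MRPL45, which holds the ribosome at the membrane, had 68.7, 76.3 and 76.9 CPM in the ERbeta libraries, against 64.4, 72.2 and 57.2 CPM in the EV_Ctrl libraries. EV_Ctrl 3 was low, EV_Ctrl 2 lay within the ERbeta range, and the log2 fold change was 0.19 ± 0.12 (SE), or 0.19 ± 0.11 with the GC correction. MRPL22 (uL22m) had 45.6, 53.7 and 46.2 CPM in the ERbeta libraries, against 47.0, 53.4 and 42.4 CPM in the EV_Ctrl libraries. Its log2 fold change was 0.03 ± 0.13 (SE), and -0.29 ± 0.14 with the GC correction. MRPL24 (uL24m) had 0.06 ± 0.12 (SE), or 0.15 ± 0.12 with the GC correction.

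The rule left 48 members unnamed. Of these, 30 had a positive log2 fold change (62.5%, against 48.3% of all genes tested) and 46 overlapped between groups (95.8%, against 81.3%). The rule had taken out the smallest p and the most extreme fold changes. More overlap and a narrower range among the rest are thus built into the choice. Their fold changes ran from -0.15 (MRPL53) to 0.38 (MRPL13), and with the GC correction these were -0.08 and -0.27, so that of MRPL13 changed sign. Their levels ran from 4.70 to 179 CPM, the upper end being MRPL37, with 167, 165 and 179 CPM in the ERbeta libraries, against 165, 164 and 158 CPM in the EV_Ctrl libraries. MRPL37 thus varied little in all 6 libraries. MRPL46 and MRPS11, the pair with starts 34 bases apart, had log2 fold changes of 0.06 ± 0.12 and -0.04 ± 0.11 (SE), and both overlapped between groups. With the GC correction these were -0.28 ± 0.17 and 0.01 ± 0.11, so both changed sign.

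Among the small subunit proteins, MRPS35 had the smallest p. MRPS35 (mS35, specific to mitochondrial ribosomes; chr12:27710773-27756295, plus strand) had 69.5, 74.3 and 77.98 CPM in the ERbeta libraries, against 51.8, 68.2 and 54.7 CPM in the EV_Ctrl libraries. The groups did not overlap, by the narrow gap between ERbeta 1 and EV_Ctrl 2. The log2 fold change was 0.34 ± 0.13 (SE; unadjusted p = 0.0343 with edgeR), and 0.07 ± 0.09 with the GC correction.

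MRPS9 (uS9m, whose bacterial relative reaches the decoding site; chr2:105037983-105099960, plus strand) had 51.8, 58.2 and 48.4 CPM in the ERbeta libraries, against 35.9, 51.8 and 38.6 CPM in the EV_Ctrl libraries. EV_Ctrl 2 matched ERbeta 1, and the groups overlapped. The log2 fold change was 0.32 ± 0.16 (SE), and nearly the same, 0.29 ± 0.15, with the GC correction. MRPS31 had 28.4, 31.7 and 29.5 CPM in the ERbeta libraries, against 21.3, 29.7 and 14.1 CPM in the EV_Ctrl libraries, a log2 fold change of 0.45 ± 0.24 (SE) that was 0.11 ± 0.18 with the GC correction. Reads on its 4 pseudogenes came to 10.6% of those on MRPS31, and how many reads were assigned to the wrong copy was not tested. MRPS22, in which inherited mutations impair mitochondrial translation, had 34.6, 35.7 and 35.9 CPM in the ERbeta libraries, against 24.5, 37.0 and 20.2 CPM in the EV_Ctrl libraries. Its log2 fold change was 0.37 ± 0.21 (SE), and 0.06 ± 0.14 with the GC correction.

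On the lower side, MRPS16 (bS16m) had 98.1, 96.7 and 104 CPM in the ERbeta libraries, against 115, 109 and 106 CPM in the EV_Ctrl libraries. The groups did not overlap, and the log2 fold change was -0.14 ± 0.09 (SE; unadjusted p = 0.185 with edgeR) with and without the GC correction. MRPS24 (uS3m) had 2.78, 5.54 and 3.85 CPM in the ERbeta libraries, against 5.68, 5.05 and 5.05 CPM in the EV_Ctrl libraries. It is among the least abundant members, and 23.2% of its exonic bases are shared with the readthrough gene URGCP-MRPS24. Its log2 fold change was -0.36 ± 0.25 (SE). MRPS12 (uS12m), the protein of the decoding centre whose bacterial relative is the site of streptomycin resistance, had 85.7, 92.6 and 68.1 CPM in the ERbeta libraries, against 105, 87.2 and 82.0 CPM in the EV_Ctrl libraries. Its log2 fold change was -0.15 ± 0.15 (SE), or -0.04 ± 0.11 with the GC correction, and 16.3% of its exonic bases overlap SARS2 on the opposite strand.

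Some genes with an MRPS symbol encode proteins that do not sit in the small subunit. MRPS30 (mL65) and MRPS18A (mL66) are found in the large subunit, and MRPS36 (also KGD4) is a part of the alpha-ketoglutarate dehydrogenase complex and not of the ribosome. MRPS30 had 69.8, 63.3 and 83.0 CPM in the ERbeta libraries, against 62.2, 64.9 and 69.7 CPM in the EV_Ctrl libraries. The groups overlapped, with a log2 fold change of 0.13 ± 0.13 (SE). With the GC correction MRPS30 had the lowest fold change of the family, -0.59 ± 0.19; its longest transcript has a GC content of 34.5%.

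MRPS36 had 28.8, 33.7 and 32.3 CPM in the ERbeta libraries, against 23.7, 34.6 and 20.6 CPM in the EV_Ctrl libraries. EV_Ctrl 2 was the highest library of all, and the log2 fold change of 0.25 ± 0.20 (SE) turned to -0.36 ± 0.13 with the GC correction. The 3 paralogs of bacterial protein S18 take different places in the ribosome, and none stood apart between groups. MRPS18A, in the large subunit, had 60.1, 62.3 and 61.0 CPM in the ERbeta libraries, against 63.2, 57.5 and 54.9 CPM in the EV_Ctrl libraries. MRPS18B (mS40) and MRPS18C (bS18m), both in the small subunit, had log2 fold changes of 0.08 ± 0.10 and 0.19 ± 0.20 (SE), beside 0.06 ± 0.10 for MRPS18A. By library size only those of MRPS18A and MRPS18B were -0.03 and -0.01, and with the GC correction those of MRPS18A, MRPS18B and MRPS18C were 0.18 ± 0.11, 0.15 ± 0.10 and -0.21 ± 0.16. Exonic bases shared with a gene on the opposite strand came to 47.0% in MRPS18A (RSPH9) and 40.2% in MRPS18C (ABRAXAS1).

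The levels of the members differed far more from each other than between groups. Per kilobase (kb) of exon, the median member had 21.3 CPM in ERbeta against 21.4 CPM in EV_Ctrl, against 5.26 CPM in ERbeta and 4.96 in EV_Ctrl for all genes with a length. The median cytosolic ribosomal protein had 200 CPM per kb in ERbeta against 190 CPM per kb in EV_Ctrl. MRPS34, a protein specific to the mitochondrial small subunit, was the most abundant member per length with 152 ± 18.1 CPM per kb in ERbeta against 156 ± 11.1 CPM per kb in EV_Ctrl (SD, n = 3 each), above the next gene by more than the spread of either. MRPL51, MRPL14, MRPL18 and MRPL37 came next.

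Leaving MRPS34 aside, those 4 did not differ beyond their spread from their neighbours in the order. MRPL51 had 79.2 ± 9.25 CPM per kb in ERbeta against 70.3 ± 16.5 in EV_Ctrl (SD, n = 3 each). For MRPL14 it was 69.8 ± 10.2 in ERbeta and 76.0 ± 9.24 in EV_Ctrl (SD, n = 3 each). MRPL14 (uL14m) lies at the face where the subunits join. MRPS26 with 57.8 ± 13.4 CPM per kb in ERbeta against 65.3 ± 5.31 in EV_Ctrl and MRPS21 with 47.6 ± 4.87 in ERbeta and 46.4 ± 4.18 in EV_Ctrl followed MRPS34 among the small subunit genes. At the low end were MRPS24 with 1.55 ± 0.532 CPM per kb in ERbeta against 2.01 ± 0.139 in EV_Ctrl, and MRPS17 (uS17m) with 3.13 ± 0.108 in ERbeta and 3.37 ± 0.192 in EV_Ctrl. Among MRPL genes the lowest were MRPL38 with 2.90 ± 0.893 CPM per kb in ERbeta against 3.81 ± 0.276 in EV_Ctrl, and MRPL46 with 3.59 ± 0.308 in ERbeta and 3.45 ± 0.171 in EV_Ctrl. Exonic length here is that of all annotated exons together, so a gene with long rare exons, such as MRPL42 with 16393 bases, has a low level per length.

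GC content went with the fold changes in the family as it did in all genes. The GC content of the members' longest transcripts ran from 33.5% to 71.9%, with a median of 47.7%. Across the 78 members the Spearman correlation of fold change with GC content was -0.62, and it was -0.61 across 16091 genes tested; genes share the 6 libraries and are not independent replicates. The 39 members below the median GC content showed a median log2 fold change of 0.13, and 30 were positive. The 39 members at or above it had a median of -0.04, and 19 were positive. EV_Ctrl 1 and EV_Ctrl 3 were below all ERbeta libraries in the mean level of the first 39, and EV_Ctrl 2 was not. In the mean level of the 39 members at or above the median, ERbeta 3 was the lowest library. Their mean log2 CPM was 5.812, 5.981 and 5.705 in the ERbeta libraries, against 5.998, 5.92 and 5.727 in the EV_Ctrl libraries.

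After a correction for GC content within each library, the correlation was 0.02 over all genes and 0.41 over the members, so it turned round in the family. The median of the lower-GC members was then -0.11 and that of the higher-GC members 0.07. In all, 40 of 78 members were positive, with medians of 0.02 for MRPL and -0.01 for MRPS, and 0 members passed an adjusted p under 0.05 with edgeR. At an unadjusted p under 0.05 with this correction, MRPL42 was higher, against 5.67% of all genes, and 4 members were lower (MRPL32, MRPL35, MRPS30 and MRPS36), against 4.86%. Of the 3 members higher before the correction, MRPL42 alone was among these. With GC content and transcript length corrected together, MRPL42 had 0.05 ± 0.10 (SE; unadjusted p = 0.65 with edgeR).

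**Figure D4:**
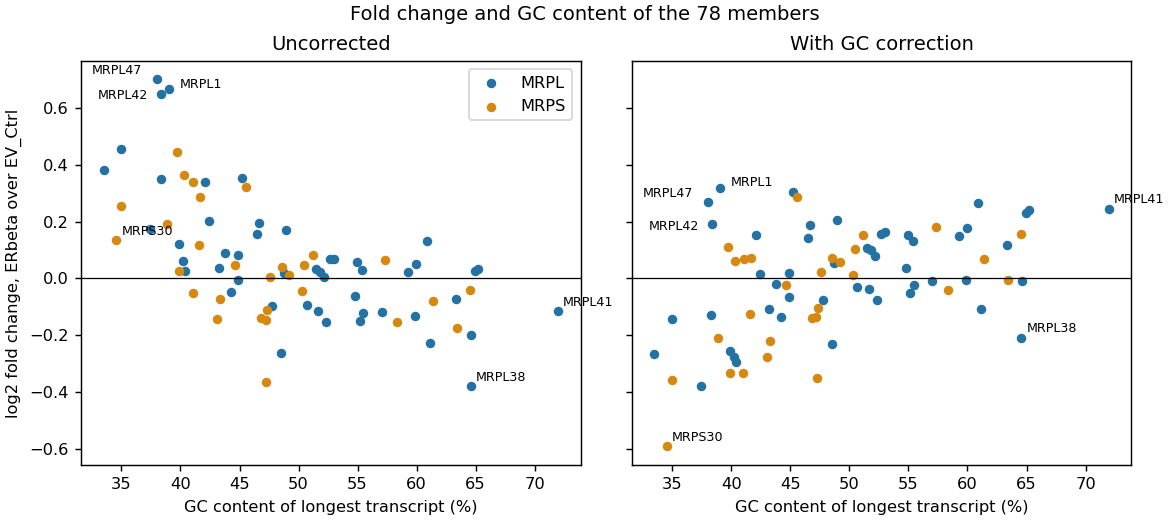
Log2 fold change, ERbeta over EV_Ctrl, of the 78 members against the GC content of their longest transcript in percent, without (left) and with (right) a correction for GC content fitted over all genes in each library; each point is 1 gene. The Spearman correlation is -0.62 on the left and 0.41 on the right, and MRPS30 lies lowest on the right at -0.59.

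Which controls are the unusual ones cannot be told here, and the number of calls changed most on leaving out EV_Ctrl 2. Without it, 12 members passed an adjusted p under 0.05 with edgeR and all were higher in ERbeta, 15.4% of the members against 13.5% of all genes; 0 were lower, against 0.775%. These were MRPL1, MRPL13, MRPL19, MRPL39, MRPL42, MRPL47 and MRPL50, and MRPS9, MRPS22, MRPS31, MRPS35 and MRPS36, and all 12 lay below the members' median GC content. With EV_Ctrl 2 left out and the GC correction made together, 6 members passed, 7.69% of them. MRPL1, MRPL47, MRPL54 and MRPS9 were higher, against 6.41% of all genes, and MRPL32 and MRPS30 were lower, against 3.87%. MRPL1, MRPL47 and MRPS9 were thus called in both, with log2 fold changes without EV_Ctrl 2 of 1.31, 1.14 and 0.51, and of 0.71, 0.44 and 0.46 with the GC correction as well.

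The other genes of mitochondrial protein synthesis gave 0 calls at an adjusted p under 0.05 with edgeR in each of the 7 lists, which were drawn up with earlier results of these data known. The 5 mitochondrial ribosomal proteins that carry no MRP symbol showed a median log2 fold change of -0.01, and 1 was positive. These were DAP3, PTCD3, CHCHD1, AURKAIP1 and GADD45GIP1, with log2 fold changes of -0.04, 0.17, -0.0044, -0.01 and -0.04. Of 26 factors of ribosome assembly and ribosomal RNA modification, 10 were positive with a median of -0.06, which turned to 0.03 with the GC correction. At an unadjusted p under 0.05 with edgeR, METTL15 (0.71 ± 0.29, SE; 0.34 with the GC correction), a methyltransferase of small subunit RNA, and GTPBP10 (0.50 ± 0.20; -0.14 with the GC correction), a GTPase of large subunit assembly, were higher (7.69% of the list, against 9.54% of all genes) and NGRN (-0.28 ± 0.11) was lower (3.85%, against 2.88%). Of these, NGRN did not overlap between groups.

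Of 15 mitochondrial translation factors, 9 were positive, and the median log2 fold change was 0.18, which was 0.07 with the GC correction. An unadjusted p under 0.05 with edgeR was found for 2, both higher in ERbeta (13.3%, against 9.54% of all genes). MTIF2, the initiation factor that brings the first transfer RNA, had 63.6, 70.2 and 75.7 CPM in the ERbeta libraries, against 33.7, 66.8 and 34.5 CPM in the EV_Ctrl libraries. EV_Ctrl 2 lay within the ERbeta range, as for MRPL1, and the log2 fold change was 0.62 ± 0.26 (SE), or 0.41 with the GC correction. The release factor MTRF1L had a log2 fold change of 0.33 ± 0.12 (SE), and 0.07 with the GC correction. GUF1, a GTPase of elongation, had 0.48 ± 0.21, or 0.12 with the GC correction.

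Of 7 genes of mitochondrial transcription and mRNA stability, 6 were positive, and the median log2 fold change was 0.31, which was 0.04 with the GC correction. TFAM, which packs mitochondrial DNA and starts its transcription, had 146, 143 and 175 CPM in the ERbeta libraries, against 88.0, 136 and 85.9 CPM in the EV_Ctrl libraries. The groups did not overlap, and the log2 fold change of 0.58 ± 0.19 (SE; unadjusted p = 0.0189 with edgeR) was 0.13 with the GC correction. LRPPRC, which stabilises mitochondrial mRNA, had 0.51 ± 0.22, or 0.33 with the GC correction, and POLRMT -0.19 ± 0.11, or 0.04 with the GC correction. Of 12 mitochondrial chaperones and proteases, 8 were positive with a median of 0.10. Their smallest p values were those of YME1L1 (0.42 ± 0.17), HSPA9 (0.26 ± 0.12) and HSPD1 (0.38 ± 0.22), which were 0.11, 0.13 and 0.29 with the GC correction.

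Of 9 regulators of nuclear genes for mitochondria, 6 were positive, and the median log2 fold change was 0.04, or -0.06 by library size only. GABPA, the DNA-binding subunit of GABP, whose ETS-type motif is in the windows above, had 102, 89.8 and 138 CPM in the ERbeta libraries, against 30.5, 74.8 and 33.4 CPM in the EV_Ctrl libraries. The groups did not overlap, and the log2 fold change was 1.23 ± 0.35 (SE; unadjusted p = 0.0084, adjusted p = 0.397 with edgeR), or 0.71 ± 0.16 with the GC correction. GABPB1, its partner subunit, had 0.37 ± 0.11, and -0.06 with the GC correction. ESRRA, an orphan nuclear receptor that controls mitochondrial genes, had -0.23 ± 0.12, or -0.05 with the GC correction.

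The mRNAs that the mitochondrial ribosome translates gave no call either. Of 13, 3 were positive, and the median log2 fold change was -0.12, or -0.27 with the GC correction, and 0 had an unadjusted p under 0.05. Their mean log2 CPM was 10.39, 10.63 and 9.79 in the ERbeta libraries, against 10.41, 10.3 and 10.59 in the EV_Ctrl libraries. ERbeta 3 was thus the lowest library and ERbeta 2 the highest, and the groups overlapped. The smallest p was that of MT-ND6, with 124, 120 and 80.5 CPM in the ERbeta libraries, against 114, 107 and 187 CPM in the EV_Ctrl libraries; EV_Ctrl 3 was the high library. MT-ATP8 and MT-ND2 followed, with log2 fold changes of -0.28 ± 0.25 and -0.12 ± 0.11 (SE). Of 77 cytosolic ribosomal protein genes, 72 were positive (93.5%, against 48.3% of all genes tested) with a median of 0.10, and 0 had an unadjusted p under 0.05. By library size only, which moved the median of all genes by -0.09 and left 36.3% of them positive, 44 of those 77 were positive.

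**Figure D5:**
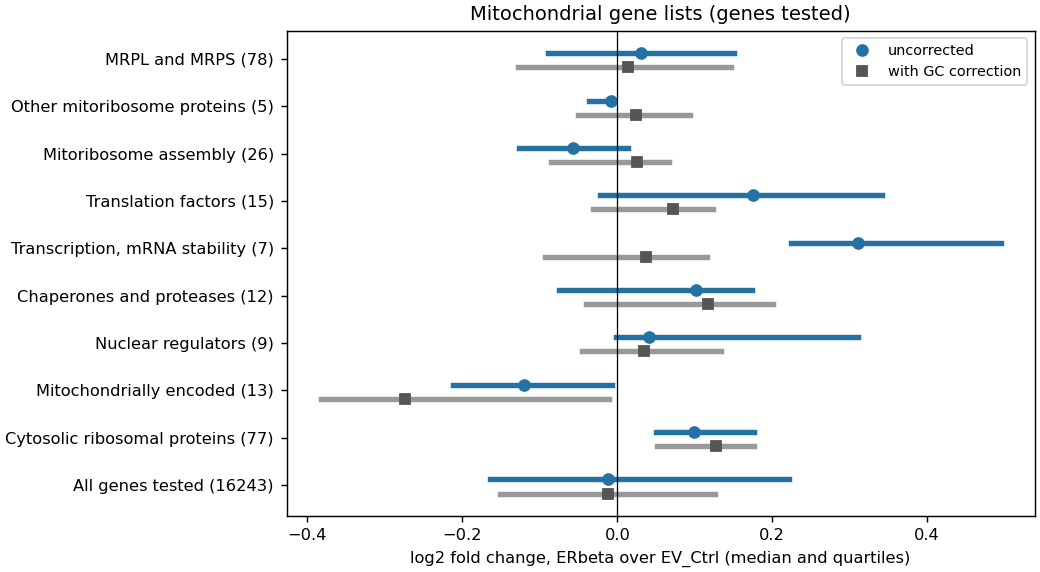
Median (symbols) and quartiles (bars) of log2 fold changes, ERbeta over EV_Ctrl, for the mitochondrial ribosomal proteins, related lists, cytosolic ribosomal proteins and all genes tested, without (blue) and with (grey) the correction for GC content; the number of genes tested stands beside each name. The members' median was 0.03, 0.01 with the GC correction and -0.06 by library size only, and the median of the 7 transcription and mRNA stability genes was 0.31 uncorrected and 0.04 with the GC correction.

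Pseudogenes took few reads, while shared exonic bases were common. The table also held 78 pseudogenes of 36 members, of which 62 had 0 reads in all libraries, and they took 352 reads beside 420629 on the members. Exonic bases were shared with another gene in 41 of 78 members, in 29 with a gene on the opposite strand and in 16 with one on the same strand, and 12 members shared more than 20% of them. The strand setting of the counting is not given in the sources used here, so reads of such pairs could not be told apart.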

How the data were processed

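RNA was sequenced from 3 ERbeta and 3 EV_Ctrl libraries of HEK293T cells with a stranded poly(A) kit, per the labels' protocols. The submitters' processing notes name TopHat2, featureCounts and DESeq2 with the build hg38, and the sources used here give no versions or annotation. The authors' deposited table holds raw whole-number counts per gene. Their deposited comparison gives, per the file headers, a mean signal (size-factor scaled counts), log2 fold changes, standard errors and Wald statistics (scores) and p-values; it was used only beside the values computed here.

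Symbols, positions, lengths and GC content of the longest transcript came from GENCODE 29 (GRCh38), and promoters from RefSeq GRCh38.p14. Counts were filtered with filterByExpr (minimum count 10, minimum total 15), scaled with TMM (trimmed mean of M values), and the quasi-likelihood test of edgeR 4.0.16 (glmQLFit, glmQLFTest; R 4.3.3) was run with Benjamini-Hochberg adjustment over 16243 genes and a threshold of 0.05. The biological coefficient of variation was 17.5%. Levels are TMM-normalised CPM, and per kb of the union of exons. For the GC correction, log2 CPM was fitted against GC content in each library by loess with a span of 0.5 and the curve entered as an offset, for the 99.1% of genes tested that had a GC value. The edgeR fit and the GC correction were tried on simulated counts with the same spread in every library. The EV_Ctrl libraries here did not behave alike, so the simulation does not show how well these steps serve the data.

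The members and lists were chosen with earlier results of these data known. Members are named if, in MRPL or MRPS, they had the 5 smallest p, the 3 highest or 3 lowest fold changes, or the 3 highest or 2 lowest levels per length, or for known roles or paralogy; in each related list the 3 smallest p are named. Others were chosen after their values were seen. Whether replicates were separate cultures is not said in the labels, so the p-values rest on a spread among libraries that may be technical only. Within a group, every pair of libraries differed by more than counting noise (chi-square per degree of freedom 4.63 to 34.1). There were 18 alternative settings, with DESeq2 1.42.0 and limma 3.58.1 among them.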

Additional observations from a re-analysis of the deposited data

How the results depend on the processing

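No member passed an adjusted p under 0.05 in 16 of the 18 alternatives. The exceptions were leaving out EV_Ctrl 2 and leaving it out with the GC correction. Leaving out 1 library gave 0 to 2324 calls over all genes, 0 to 7 among MRPL and 0 to 5 among MRPS, with the highest numbers without EV_Ctrl 2. With the GC correction and EV_Ctrl 2 left out they were 1657, 4 and 2. Calls over all genes were 51 with no filter on low counts, 9 with the GC correction, 20 with the GC and length correction, 71 with DESeq2 and 1 with limma-voom, against 0. The replicate block gave 0 calls, as did the replicate block with GC correction. Deviations from the group means had correlations of 0.23, -0.14 and -0.15 between same-numbered libraries. Differently numbered ones reached 0.36 (ERbeta 3 with EV_Ctrl 2) and -0.37 (ERbeta 1 with EV_Ctrl 2). Whether same-numbered libraries were made together cannot be told from these values. The medians, 0.03 for MRPL and 0.03 for MRPS, ranged from -0.06 to 0.08 for MRPL and from -0.06 to 0.06 for MRPS, so both changed sign in some alternatives. Each move was smaller than the spread between replicate libraries (0.14 for MRPL and 0.12 for MRPS). Leaving out 1 library can move a group mean by only a part of that spread, so this comparison does not show that the medians are stable.

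Of 53 genes named by rule, 29 changed sign in at least 1 alternative, and 2 of them (MRPS18A and MRPS18B) by library size only, which moved the median of all genes by -0.09; the cause of the other changes was not tested. With the GC correction the log2 fold changes were MRPL19 -0.13, MRPL50 -0.14, MRPL46 -0.28, MRPS34 0.16, MRPS18C -0.21, MRPS30 -0.59, MRPS36 -0.36, AURKAIP1 0.25, GADD45GIP1 0.094, GTPBP10 -0.14, POLRMT 0.037 and GABPB1 -0.058. With the replicate block and the GC correction they were MRPL19 -0.13, MRPL50 -0.14, MRPL46 -0.28, MRPS34 0.16, MRPS18C -0.21, MRPS30 -0.56, MRPS36 -0.36, AURKAIP1 0.26, GADD45GIP1 0.10, GTPBP10 -0.15, POLRMT 0.037 and GABPB1 -0.064. With the GC and length correction they were MRPL19 -0.080, MRPL50 -0.091, MRPL18 -0.0018, MRPL46 -0.26, MRPS34 0.15, MRPS18C -0.14, MRPS30 -0.62, MRPS36 -0.11, AURKAIP1 0.24, GADD45GIP1 0.082, GTPBP10 -0.29, POLRMT 0.070 and GABPB1 -0.034. With the GC correction and without EV_Ctrl 2 they were MRPL19 -0.18, MRPL50 -0.11, MRPL23 0.038, MRPL14 0.031, MRPL46 -0.43, MRPS26 0.029, MRPS34 0.23, MRPS18C -0.20, MRPS30 -0.81, MRPS36 -0.38, MRPL12 0.052, AURKAIP1 0.34, GADD45GIP1 0.19, GTPBP10 -0.27, POLRMT 0.10 and GABPB1 -0.20.

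Without EV_Ctrl 1 and 3, where the 1 control left is taken to vary as the ERbeta libraries do, they were MRPL50 -0.014, MRPL1 -0.011, MRPL51 -0.14, MRPL18 -0.088, MRPS22 -0.062, MRPS18C -0.14, MRPS36 -0.13, PTCD3 -0.094, HSPD1 -0.076 and MT-ND6 0.019. By library size only they were MRPL18 -0.073, MRPL46 -0.033, MRPS21 -0.055, MRPS18A -0.031, MRPS18B -0.010 and MRPL58 -0.063. With the replicate block CHCHD1 was 0.0075. Leaving out 1 library gave ranges of -0.087 to 0.088 for MRPL18, -0.0058 to 0.10 for MRPL46, -0.14 to 0.0091 for MRPS34, -0.041 to 0.093 for MRPS21, -0.027 to 0.081 for MRPL58, -0.094 to 0.021 for DAP3, -0.15 to 0.12 for CHCHD1, -0.14 to 0.083 for AURKAIP1 and -0.14 to 0.027 for GADD45GIP1. Depth limits the least abundant members most, with 41 reads at the lowest.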
